A study of Mus musculus with 12 samples.

Results

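Ahnak, its binding partners annexin A2 (Anxa2) and S100A10 (S100a10), and 7 further genes of calcium binding and the cytoskeleton (S100a4, S100a6, S100a11, Vim, Lgals1, Crip1 and Emp3) were followed through 12 libraries of mouse splenic B cells. They were chosen by gene symbol, and each of the 10 symbols stood on 1 of the 23282 rows of the count table. All 10 passed the filter on low counts, as did 11857 rows in all. The choice of genes was made with the counts of all groups known, and it began from Ahnak, which was singled out because it was much lower after ODN alone than in control.

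Wild-type C57BL/6 mice, 7 weeks old, gave 4 groups of 3 libraries. ODN+IM156 mice received 50 µg of ODN per injection, given on days 1 and 3, together with IM156 (30 mg/kg, injected on day 0 and again on day 2). ODN mice and IM156 mice had the injections of that agent only, and control mice had no treatment. All injections went into the peritoneum, and spleens were taken on day 4. ODN is the class B CpG oligonucleotide 1826, which activates the endosomal receptor TLR9 of B cells, and IM156 is an inhibitor of oxidative phosphorylation in the series' own description. That description also calls the mice lupus-prone, while the labels give only wild-type C57BL/6. No vehicle injection is given for the controls, so the agents and the injections cannot be told apart, and nothing says how many animals stand behind a library, so p-values measure the spread between these samples.

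AHNAK is a very large scaffold protein that lies under the plasma membrane, where it binds the complex of annexin A2 and S100A10. Annexin A2 attaches to membrane phospholipids in the presence of calcium, and S100A10 is the unusual S100 protein that joins to it without needing calcium. In lymphocytes, transcripts of this kind (S100A4, S100A6, vimentin, galectin-1, CRIP1) are generally higher in effector and memory cells than in naive cells.

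Libraries held 9650775 to 11532525 counts each, from a kit that reads the 3′ end of transcripts. The 13 B-cell markers on the list had summed levels of 19850 to 21020 CPM in ODN+IM156, 19540 to 23610 CPM in ODN, 21550 to 22540 CPM in IM156 and 20310 to 23170 CPM for control, with none of the 13 at 0. All ODN+IM156 sums lay below all IM156 sums, while ODN and control overlapped, and the part of this in the comparisons below was not tested. CPM is the count scaled to a common library size, so it compares libraries for 1 gene and not genes with each other. ODN replicate 3 stood apart in Xist, a transcript of the inactive X chromosome, with 1 count against 9701 to 13011 in the other libraries. ODN replicate 2 stood apart in the ribosomal RNA row Rn45s, which took 1.46% of its counts against 4.78% to 9.63% elsewhere. Counts of calls that changed without ODN replicate 3 are given with and without it.

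Ahnak was lower wherever mice had received ODN, at about 0.4 of its level without it. It had 31.2, 24.7 and 23.9 CPM in the ODN+IM156 libraries, 20.1, 28.6 and 27.7 in the ODN libraries, 70.0, 66.8 and 77.5 in the IM156 libraries, and 54.2, 68.2 and 72.9 in the control libraries. All 6 libraries with ODN therefore lay below all 6 libraries without it, with no overlap. The order of the group means was IM156 (71.4 ± 5.53), control (65.1 ± 9.76), ODN+IM156 (26.6 ± 4) and ODN (25.4 ± 4.66 CPM, SD, n = 3 each). IM156 and control overlapped, and so did ODN+IM156 and ODN. These levels rest on 193 to 909 counts per library. In ODN against control, the comparison that singled Ahnak out, the log2 fold change was -1.35 (SE 0.146; -1.42 without ODN replicate 3), given as a description with no test.

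The libraries of mice that all received IM156 give the contrast of ODN in libraries that the first comparison did not use. Their counts were known when the genes were chosen, and the fit shares 1 spread per gene over all 12 libraries. The result below is therefore no independent support. In ODN+IM156 against IM156, Ahnak fell by 1.42 on the log2 scale (SE 0.145, adjusted p = 6.65e-06 by edgeR's quasi-likelihood test with Benjamini-Hochberg adjustment over all genes tested), to 0.373 of its IM156 level. Leaving out any 1 of these 6 libraries gave -1.55 to -1.35. The difference between the ODN effects on Ahnak with and without IM156 did not pass, at -0.07 (SE 0.204, 95% interval -0.50 to 0.36, edgeR adjusted p = 0.936). The authors' deposited table gives Ahnak a fold change of 0.374 for ODN+IM156 over IM156 and 0.392 for ODN over control. Ahnak lies on chromosome 19 at 8989284 to 9076914 (GRCm38, plus strand, GENCODE M21), and no other annotated gene overlaps it.

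**Figure D1:**
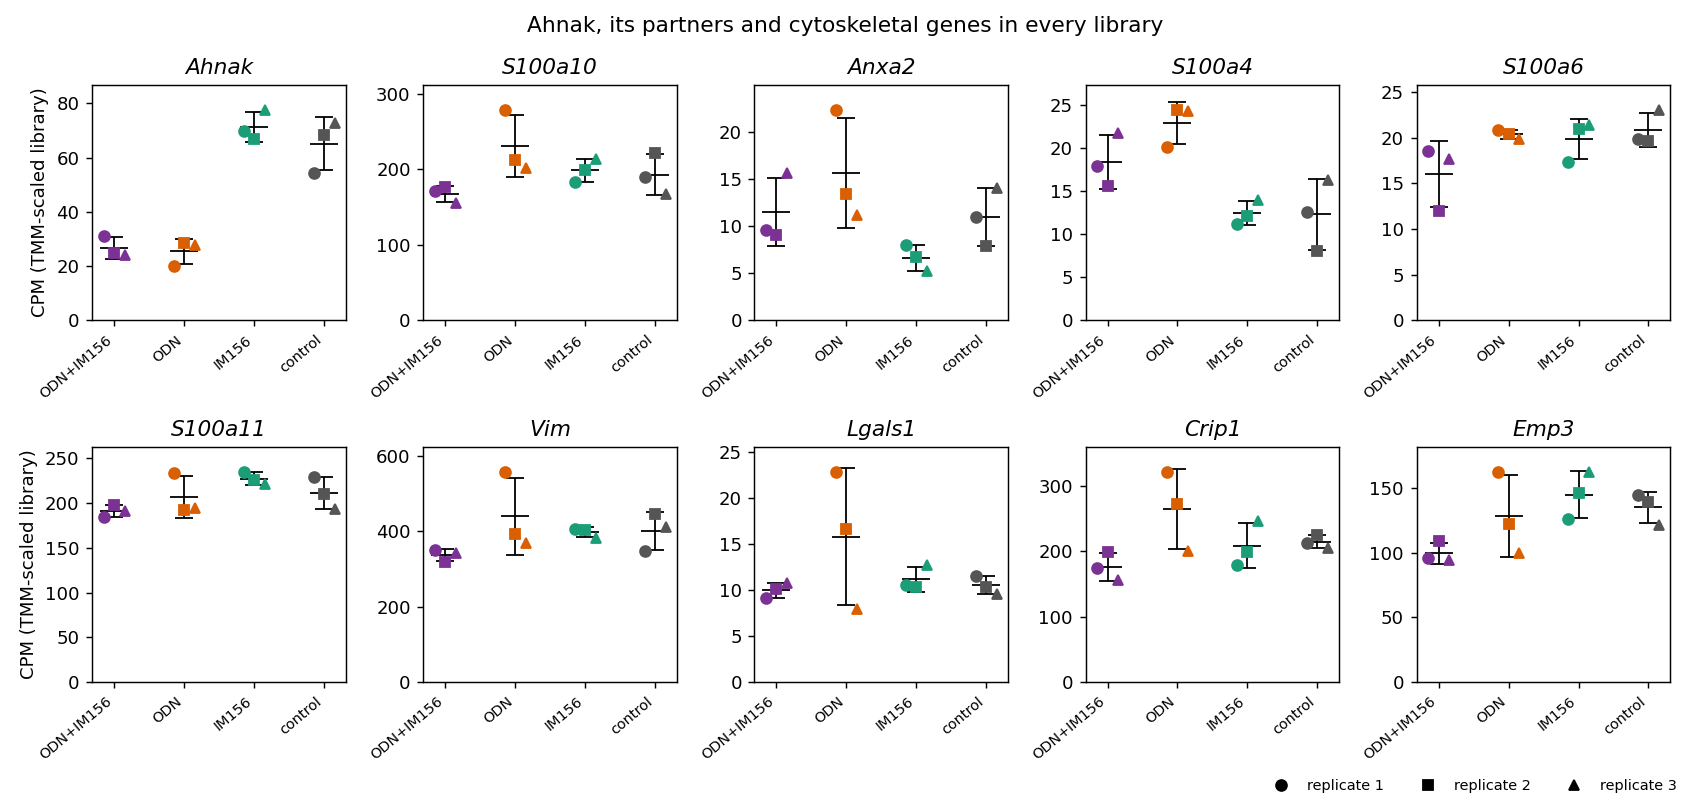
Level of each of the 10 genes in CPM of the scaled library (y axis, from 0, scaled per gene) in each library, by group (x axis); symbols mark replicates, and bars give the mean and SD of 3 libraries. Ahnak sits between 20.1 and 31.2 CPM in the ODN+IM156 and ODN libraries and between 54.2 and 77.5 CPM in the IM156 and control libraries, a split that none of the other 9 panels shows in that direction.

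The gene that lay highest against its control after ODN alone was S100a4, a calcium-binding protein that acts on non-muscle myosin and cell motility. It had 17.9, 15.5 and 21.7 CPM in ODN+IM156, 20.1, 24.4 and 24.3 in ODN, 11.2, 12.2 and 13.99 in IM156, and 12.6, 7.99 and 16.3 in control. ODN libraries lay above all control libraries, and ODN+IM156 libraries above all IM156 libraries. Its log2 fold change was 0.90 in ODN against control (SE 0.206, a description; 0.85 without ODN replicate 3) and 0.56 in ODN+IM156 against IM156 (SE 0.207, edgeR adjusted p = 0.183, not passing). S100a4 lies on chromosome 3 at 90603771 to 90606045 and shares a stretch on the same strand with the annotated gene Gm42674, so the source of its reads is less certain.

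S100a4 is abundant in myeloid cells and T cells too, so the markers of other cells were summed. Sums of the 16 neutrophil markers in the table were 25.1 to 33.6 CPM with ODN+IM156, 31.6 to 100.1 with ODN, 4.19 to 9.89 with IM156 and 9.35 to 10.8 without treatment. Ctsg was at 0 in all 4 groups, Elane also in ODN and control, Lcn2 in IM156 and control, Mmp8 in control, and Mpo, Camp and Ltf in IM156. Sums of the 20 monocyte and macrophage markers were 134.0 to 211.5 CPM with ODN+IM156, 111.2 to 154.8 with ODN, 75.8 to 122.9 with IM156 and 69.96 to 121.0 without treatment, with none at 0. Neutrophil sums of all 6 libraries with ODN lay above those of all 6 without it, and monocyte sums of ODN+IM156 lay above those of IM156. The 12 platelet markers, none at 0, summed to 133.0 to 180.7 CPM with ODN+IM156, 135.7 to 232.5 with ODN, 64.4 to 67.2 with IM156 and 46.8 to 70.2 without treatment. The 13 T-cell markers, none at 0, summed to 34.9 to 47.8 CPM with ODN+IM156, 34.2 to 41.99 with ODN, 30.3 to 34.5 with IM156 and 26.95 to 33.7 without treatment. T-cell, neutrophil and platelet sums of ODN+IM156 thus lay above all those of IM156, and those of ODN above all those of control, as S100a4 did. Dendritic-cell sums, given below, did the same. Among the neutrophil markers, S100a9 had 9.41 ± 1.81 CPM in ODN+IM156 and 1.99 ± 0.953 CPM in IM156 (log2 fold change 2.22, SE 0.485, edgeR adjusted p = 0.0169). The 12 NK-cell markers summed to 37.7 to 62.4 CPM in libraries with ODN and 23.5 to 37.7 in those without, where Ncr1, Klre1 and Gzmb were at 0. Dendritic-cell sums were 68.8 to 109.2 CPM with ODN and 39.3 to 63.1 without. Erythroid sums were 126.2 to 200.5 CPM with ODN+IM156, 178.4 to 326.1 with ODN, 168.5 to 645.5 with IM156 and 748.6 to 951.6 without treatment. Erythroid sums of ODN thus lay below all those of control, while those of ODN+IM156 and IM156 overlapped. Clec10a of the dendritic-cell list and Epor of the erythroid list were at 0 in IM156. Plasma-cell sums (922.1 to 1164 CPM) and stromal sums (245.4 to 309.9 CPM) overlapped between all groups. The part of these cells in the levels of S100a4 or of the other 9 genes was not tested. In such bulk libraries, fewer cells of a type and less RNA per cell cannot be told apart.

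The promoters of Ahnak and S100a4 are shown because these 2 genes differed most, in opposite directions, in ODN against control. Each runs from 250 bases before to 50 bases after the start of the gene in a table of RefSeq promoters (GRCm38.p6) in which 8 of the 10 genes were matched, and is written 5′ to 3′ on the plus strand. Ahnak is at chr19:8989034-8989333 and S100a4 at chr3:90603520-90603819. Capitals mark every match, on either strand, to 1 of 5 motifs searched: the Sp1 GC box GGGCGG, the CACCC box of KLF factors, the TATA box TATAAA, the AP-1 motif TGANTCA and the E-box CACGTG.
Ahnak: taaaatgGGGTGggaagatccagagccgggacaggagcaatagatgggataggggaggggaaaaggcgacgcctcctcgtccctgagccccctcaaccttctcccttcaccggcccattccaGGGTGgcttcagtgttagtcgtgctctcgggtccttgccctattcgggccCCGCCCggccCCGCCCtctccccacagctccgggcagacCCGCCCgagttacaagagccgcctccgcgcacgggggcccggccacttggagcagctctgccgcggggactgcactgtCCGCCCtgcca
S100a4: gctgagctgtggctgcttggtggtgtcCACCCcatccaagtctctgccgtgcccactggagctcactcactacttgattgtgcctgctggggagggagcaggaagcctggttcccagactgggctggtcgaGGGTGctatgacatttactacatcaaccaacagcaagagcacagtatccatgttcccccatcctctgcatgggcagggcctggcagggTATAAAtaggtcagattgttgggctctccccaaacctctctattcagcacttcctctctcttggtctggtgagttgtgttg
Ahnak held 4 GC boxes, 2 CACCC boxes and no TATA box. S100a4 held no GC box, 2 CACCC boxes and 1 TATA box, and neither held the AP-1 or E-box letters. Of 32851 RefSeq promoters of this length, 35.7% held the GC box, 57.5% the CACCC box, 13.6% the TATA box, 7.81% the AP-1 motif and 7.15% the E-box, so these matches describe the sequences and are no evidence of binding. GC and CACCC boxes can share letters where they adjoin, which they did not do in these 2 promoters.

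The binding partners showed no such split by ODN. S100a10, which binds both annexin A2 and AHNAK, had 170.7, 176.0 and 154.8 CPM in ODN+IM156, 278.2, 211.6 and 202.0 in ODN, 182.6, 198.5 and 213.7 in IM156, and 189.8, 221.3 and 167.5 in control. The ODN and control libraries overlapped, and the ODN+IM156 libraries lay below every ODN and every IM156 library. Its log2 fold change was 0.26 in ODN against control (SE 0.118, a description) and -0.25 in ODN+IM156 against IM156 (SE 0.119, edgeR adjusted p = 0.352).

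Anxa2 had 9.62, 9.09 and 15.6 CPM in ODN+IM156, 22.3, 13.4 and 11.2 in ODN, 7.98, 6.73 and 5.20 in IM156, and 10.9, 7.89 and 14.04 in control. It was lowest in the IM156 libraries, where it lay below every library with ODN, while control overlapped with each of the other groups. It stood at 0.79 in ODN+IM156 against IM156 (log2, SE 0.286, edgeR adjusted p = 0.174) and at -0.73 in IM156 against control (SE 0.287, edgeR adjusted p = 0.999), neither of which passed. Anxa2 had 61 to 214 counts per library, the fewest of the 10 genes, and the antisense gene Gm16144 overlaps it.

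Read over all 10 genes, 2 passed the threshold of an adjusted p below 0.05 in ODN against control, Ahnak lower and S100a4 higher, where 10.6% of all genes tested did. Nothing is read from that count, since this contrast led to the choice. Libraries of ODN and control did not overlap for these same 2 genes, where 13.2% of all genes lay wholly above and 11.3% wholly below. The median log2 fold change was 0.19 over the 10 genes and -0.005 over all genes tested. Ahnak and Emp3, 2 of the 10, fell in ODN+IM156 against IM156 and none rose, where 2.47% of all genes passed in either direction and 0.734% passed as lower. The median was -0.24 for the 10 genes and -0.003 for all genes. A fit of only the 6 libraries compared called 6 of the 10, adding Vim and S100a11 as lower and Anxa2 and S100a4 as higher, where 7.76% of all genes passed and 2.63% as lower. Libraries did not overlap for 7 of the 10 in this comparison, with ODN+IM156 above IM156 in 2 and below it in 5, while 12.8% of all genes lay wholly above and 11.8% wholly below.

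Emp3, a small membrane protein with 4 membrane-spanning segments, had 95.8, 108.8 and 94.2 CPM in ODN+IM156, 162.6, 122.5 and 100.2 in ODN, 126.0, 146.4 and 162.8 in IM156, and 144.8, 139.2 and 121.6 in control. The ODN+IM156 libraries lay below all IM156 and all control libraries. It fell by 0.54 on the log2 scale in ODN+IM156 against IM156 (SE 0.137, edgeR adjusted p = 0.0409). The call was lost in several fits: without IM156 replicate 2 or 3, or without any 1 of the ODN+IM156 libraries, the edgeR adjusted p was 0.0751 to 0.22, with fold changes of -0.61 to -0.45. With a robust fit it was 0.0572, and over all 14 alternatives it ran from 9.17e-06 to 0.22.

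**Figure D2:**
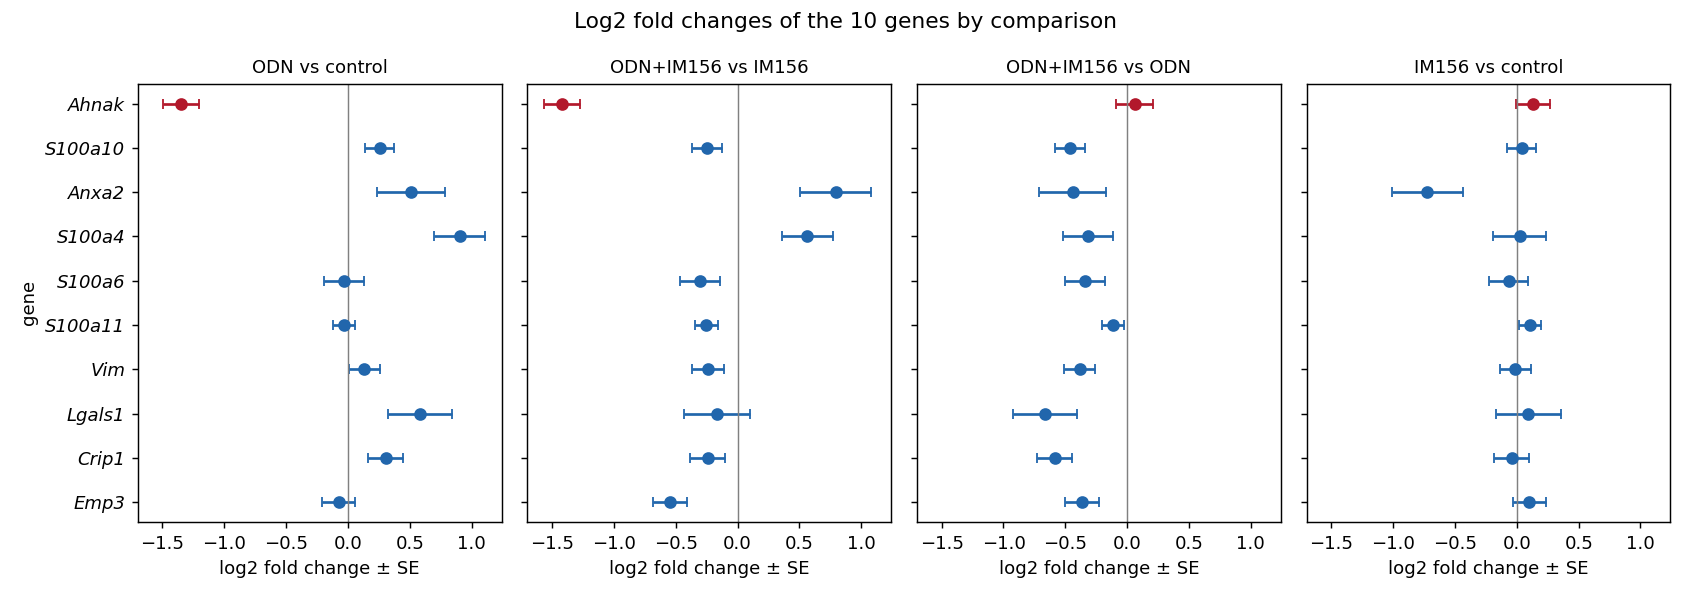
Log2 fold change of each gene (x axis, positive where the group named first was higher) with its standard error from the fit, for 4 comparisons; Ahnak is in red and the other 9 genes in blue. Ahnak stands at -1.35 and -1.42 in both comparisons of ODN and near 0 in both comparisons of IM156, whereas the 9 other genes all lie below 0 in ODN+IM156 against ODN.

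With IM156 added to ODN, no gene of the 10 passed the test, although all but Ahnak had lower means. In ODN+IM156 against ODN, 9 of 10 log2 fold changes were negative, from -0.66 for Lgals1 to -0.11 for S100a11, and Ahnak was at 0.06 (SE 0.15, edgeR adjusted p = 0.891). The median was -0.38 for the 10 genes and -0.008 for all genes, of which 51.2% were negative. edgeR called 0 of the 10 genes, where 0.0675% of all genes passed. An unadjusted p below 0.05 was reached by 6 of the 10 and by 16.2% of all genes, and DESeq2 called 2 (Crip1 and S100a10), both lower, where it called 4.1% of the genes to which it gave an adjusted p and 2.53% as lower. Without the filter on low counts edgeR called 5 (S100a10, Vim, Lgals1, Crip1 and Emp3, all lower), where 3.82% of all genes passed and 2.56% as lower. Libraries did not overlap for 4 of the 10 (S100a10, S100a6, Vim and Crip1), all with ODN+IM156 below ODN, where 10% of all genes lay wholly below.

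Crip1, a small zinc-binding LIM-domain protein, had the smallest p of the 10 in that comparison. It had 174.3, 199.0 and 155.9 CPM in ODN+IM156, 322.0, 272.8 and 200.1 in ODN, 179.8, 198.4 and 246.7 in IM156, and 212.2, 225.8 and 205.9 in control. All ODN+IM156 libraries lay below all ODN libraries, the lowest of which was replicate 3 (log2 fold change -0.59, SE 0.141, edgeR adjusted p = 0.0622). S100a10 stood at -0.46 (SE 0.119, edgeR adjusted p = 0.0649).

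Lgals1, the sugar-binding galectin-1, had 9.06, 10.04 and 10.7 CPM in ODN+IM156, 22.8, 16.6 and 7.94 in ODN, 10.5, 10.3 and 12.7 in IM156, and 11.5, 10.3 and 9.59 in control. Its spread within ODN, 15.8 ± 7.47 CPM, was far wider than within ODN+IM156, 9.94 ± 0.838 CPM. Vim, the intermediate filament protein vimentin, had 350.5, 318.3 and 343.2 CPM in ODN+IM156, 558.5, 392.4 and 369.3 in ODN, 407.0, 404.6 and 383.3 in IM156, and 346.8, 446.5 and 412.0 in control. For both genes, ODN replicate 1 was the highest library of all and ODN replicate 3 the lowest of its group. Pseudogenes that carry the gene's own name are annotated for Lgals1 (2) and S100a11 (1), so reads of these genes may be shared with copies. Pseudogenes under other names were not searched for, for any of the 10 genes.

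The ODN libraries thus ranged widely, and the comparison depends on them. Against the control mean, the median of the 9 genes other than Ahnak was 0.54 in ODN replicate 1, 0.14 in replicate 2 and -0.10 in replicate 3 (log2), while it lay between -0.22 and -0.12 in the ODN+IM156 libraries. Neutrophil markers summed to 100.1 CPM in ODN replicate 1, against 31.6 and 33.6 in replicates 2 and 3, and their part in this range was not tested. Ahnak stood at -1.67, -1.17 and -1.22 in the same 3 ODN libraries, lowest in replicate 1. Without ODN replicate 3, the library low in Xist, 5 of the 10 genes fell in ODN+IM156 against ODN (S100a10, Vim, Lgals1, Crip1 and Emp3, edgeR adjusted p 0.00175 to 0.0196), where 6.57% of all genes passed and 4.36% as lower. Without ODN replicate 1, none of the 10 passed, where 0.0497% of all genes did, and their fold changes lay between -0.42 and -0.02. Without ODN replicate 3, ODN against control had 4 of the 10 genes past the threshold, now with Lgals1 and Crip1 higher, where 15.5% of all genes passed. Nothing is read from this count either, since that contrast led to the choice of genes.

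**Figure D3:**
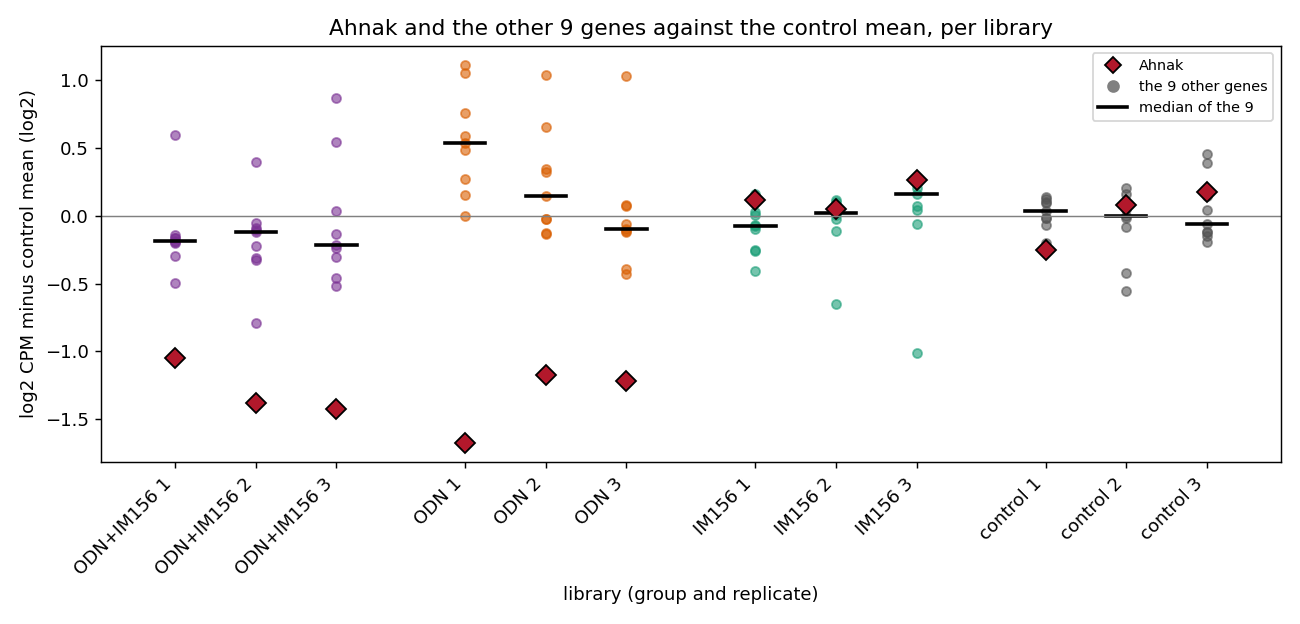
Log2 CPM minus the mean of the control libraries (y axis) for each library (x axis): diamonds are Ahnak, points the 9 other genes, black lines the median of the 9. The median of the 9 runs across 0.54, 0.14 and -0.10 in the 3 ODN libraries, and Ahnak lies below all other genes in each of the 6 libraries with ODN.

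Neither gene of the last S100 pair was called in any comparison in the fit of all 12 libraries. S100a6 (calcyclin) had 16.1 ± 3.59 CPM in ODN+IM156, 20.4 ± 0.467 in ODN, 19.9 ± 2.22 in IM156 and 20.9 ± 1.88 in control. S100a11, a calcium-binding partner of annexin A1, had 191 ± 6.95, 207 ± 23.4, 227 ± 6.95 and 211 ± 18 CPM in the same 4 groups (SD, n = 3 each). For S100a6 the ODN+IM156 libraries lay below all ODN and all control libraries and overlapped with IM156. Its log2 fold change was -0.34 against ODN (SE 0.162, edgeR adjusted p = 0.307) and -0.37 against control (SE 0.162, a description). For S100a11 the ODN+IM156 libraries lay below all IM156 libraries, at -0.25 (log2, SE 0.0911, edgeR adjusted p = 0.176).

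IM156 without ODN gave no difference past the threshold in these genes. In IM156 against control, edgeR called 0 of the 10 and 0% of all genes, and DESeq2 called 0.0169% of all genes and none of the 10. An unadjusted p below 0.05 was reached by 1 of the 10, Anxa2, and by 3.7% of all genes. The libraries of both groups overlapped for all 10 genes, while 5.16% of all genes lay wholly above and 5.25% wholly below. Ahnak was at 0.13 (log2, SE 0.138, 95% interval -0.16 to 0.42, edgeR adjusted p = 0.999), an interval that does not hold a change as large as that in either comparison of ODN.

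ODN+IM156 and ODN share their control libraries, so both are given side by side against them. Ahnak was at -1.29 (SE 0.145) in ODN+IM156 and -1.35 (SE 0.146) in ODN. S100a4 was at 0.59 (SE 0.208) and 0.90 (SE 0.206), and Emp3 at -0.44 (SE 0.137) and -0.08 (SE 0.136). Of the 10 genes, 1 passed in ODN+IM156 against control, Ahnak, where 1.59% of all genes did and 0.337% as lower. That count is a description only, since its control libraries are those of the comparison that singled Ahnak out. The difference between the IM156 effects in ODN mice and in mice without ODN (the interaction) was negative for all but Anxa2, and edgeR called it for 0 of the 10 and 0% of all genes. DESeq2 gave an adjusted p to 6 of the 10 (none to Anxa2, S100a4, S100a6 or Lgals1) and called 0 of these, against 3.86% of all genes to which it gave one. An unadjusted p below 0.05 for it was reached by 3 (S100a10, Crip1 and Emp3), against 12.3% of all genes. Leaving out ODN replicate 3, Crip1 (-0.70, SE 0.166) and Lgals1 (-1.06, SE 0.269) passed, with edgeR adjusted p of 0.0345 and 0.0433, where 2.15% of all genes passed.

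For the wider families, counts of called genes are given beside the shares of all genes tested. Of 9 tested annexins out of 12 listed, 0 were called in either comparison of ODN, with a median of 0.27 in ODN against control and -0.15 in ODN+IM156 against IM156. Of 10 tested S100 family genes out of 17 listed, 3 were higher in ODN against control, S100a8, S100a9 and S100a4, the last of which belongs to the 10 chosen genes. In ODN+IM156 against IM156, 2 were higher (S100a8 and S100a9). Of all genes, 7.34% were higher in ODN against control and 1.74% in ODN+IM156 against IM156, and 3.25% and 0.734% were lower, and the list counts here and below stand beside these shares. S100a8 and S100a9, the subunits of the neutrophil protein calprotectin, are also on the neutrophil list. Of 11 tested genes of AHNAK and plasma membrane repair, Ahnak, whose low level in this contrast led to its choice, and 1 other were lower in ODN against control. The other was Myof, the membrane fusion protein myoferlin, with 42.2 ± 13.5 CPM in ODN and 66.8 ± 6.93 in control. Myof was not called in ODN+IM156 against IM156 (58.8 ± 5.15 and 68.9 ± 3.31 CPM, log2 fold change -0.23, SE 0.16, edgeR adjusted p = 0.57).

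Of 39 genes of actin and membrane linkers, 3 were higher in ODN against control (Actn1, Arpc3 and Coro1b, median of the list 0.04), where 7.34% of all genes were, and 1 fell in ODN+IM156 against IM156, where 0.734% of all genes did. That gene was Gsn, the actin-severing protein gelsolin, with 58.3 ± 2.68 CPM in ODN+IM156 and 83.2 ± 8.88 in IM156 (log2 fold change -0.51, SE 0.128, edgeR adjusted p = 0.0387). Of 8 genes on the list of intermediate filaments and lamins, Lmnb1 was higher and Macf1 lower in ODN against control. Of all genes, 7.34% were higher and 3.25% lower there. Macf1 is on that list but is itself neither an intermediate filament nor a lamin. In ODN+IM156 against IM156, 0 of the 8 passed. Of 14 LIM-protein genes, 3 were higher in ODN against control (Csrp1, Pdlim1 and Pdlim2), beside 7.34% of all genes, and 0 passed in ODN+IM156 against IM156. Of 6 tested genes on the galectin list, 1 was called, higher in both comparisons of ODN. This was Lgals3bp, which encodes a galectin-3 binding glycoprotein and is not itself a galectin. It rose to 34.3 ± 2.02 CPM in ODN+IM156, against 15 ± 1.17 in IM156 (log2 fold change 1.20, SE 0.167, edgeR adjusted p = 0.000251).

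Of 18 tested genes of memory and B-1 B cells, 4 were higher in ODN against control (Bhlhe41, Cd38, Tbx21 and Fcrl5, median of the list 0.43), beside 7.34% of all genes. Fcrl5, an Fc receptor-like protein, was the 1 that rose in ODN+IM156 against IM156 (1.74% of all genes), at 49.8 ± 12.6 CPM in ODN+IM156 and 30.4 ± 0.666 in IM156 (log2 fold change 0.71, SE 0.153, edgeR adjusted p = 0.0157). Of 23 genes of integrins and migration, 1 rose and 1 fell in ODN+IM156 against IM156, where 1.74% of all genes rose and 0.734% fell. Itgax, the integrin CD11c and also a dendritic-cell marker, rose to 12.9 ± 2.38 CPM in ODN+IM156, against 5.88 ± 0.802 in IM156. The adhesion molecule Icam2, named after its value was seen, fell to 110 ± 3 CPM in ODN+IM156, against 138 ± 9.78 in IM156 (edgeR adjusted p = 0.0474). Klf2, a quiescence and trafficking factor (-0.41, SE 0.114, edgeR adjusted p = 0.0689), Cd44 (-0.03, SE 0.0929) and S1pr1 (-0.21, SE 0.0964) did not pass there.

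Without ODN replicate 3 more listed genes passed in ODN against control, as did more of all genes (9.45% higher and 6.06% lower). The genes added, named after their values were seen, were all higher but Crip3. They were Anxa1 among the annexins, S100a13 in the S100 family, Pdcd6 and Capns1 in the membrane repair list, Lmnb2 among lamins, and Actg1 and Tmsb4x in the actin list. Csrp2, Crip1 and the lower Crip3 were added among LIM proteins, Lgals1 among galectins, and Spn and Plscr1 in the memory and B-1 list.

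The genes whose pattern over the 12 libraries was most like that of Ahnak were not its binding partners. Likeness was the root mean square difference between centred log2 CPM profiles, over the 8231 genes that averaged 10 CPM or more. The 6 nearest were Antxr2 (0.269), Myadm (0.312), Carns1 (0.321), Tsc22d3 (0.335), Dusp1 (0.352) and Il6ra (0.368), where a gene that never changed would have 0.719. Antxr2, a receptor of anthrax toxin, had 15.8 ± 2.58 CPM in ODN+IM156, 15.7 ± 6.14 in ODN, 35.2 ± 3.22 in IM156 and 35.6 ± 11 in control. Myadm, a membrane protein of lipid rafts, had 34.8 ± 0.233, 34.2 ± 3.31, 61.2 ± 4.2 and 69.6 ± 3.37 CPM in the same 4 groups. Dusp1, a phosphatase of MAP kinases, overlaps Ergic1 on the opposite strand, so some of its reads may belong to that gene (no strand rule is given).

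Among the other 9 genes, Emp3 came nearest to Ahnak, at rank 1031 (0.637), followed by S100a6 at rank 1696. S100a10 stood at rank 5644 (0.769), S100a4 at 8034 (1.11) and Anxa2 at 8062 (1.15) of 8231.

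**Figure D4:**
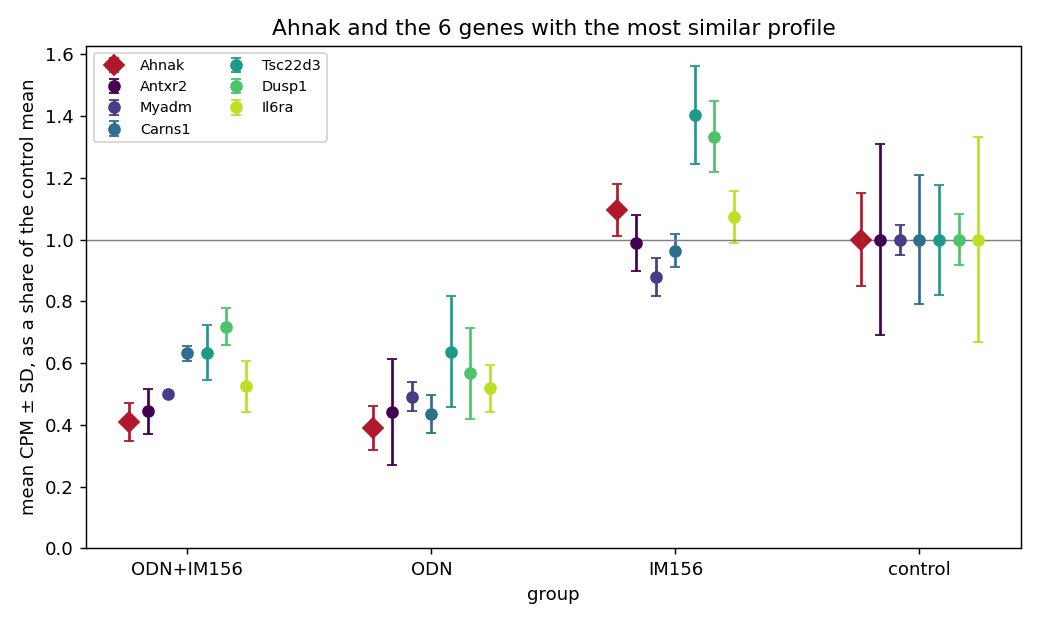
Mean CPM with SD of 3 libraries as a share of each gene's control mean (y axis, from 0) in the 4 groups (x axis), for Ahnak (diamonds) and the 6 genes of most similar profile. The means of all 7 genes in ODN+IM156 and ODN lie below their means in IM156 and control, and Tsc22d3 and Dusp1 stand above control in IM156, unlike Myadm. The 6 genes were picked for likeness to Ahnak over these same libraries, so the shared split by ODN largely follows from that choice.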

How the data were processed

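RNA of splenic B cells was extracted with TRIzol and made into libraries with the QuantSeq 3′ kit, per the labels' protocols. The authors deposited 1 table with unnormalized counts for every gene. Bowtie2, bedtools and edgeR with GRCm38 (mm10) are named in the submitters' processing notes; versions, annotation and strand rule are not given in the sources used here. The same deposited table holds fold changes, a linear ratio, p-values of the authors and log2 normalized values, per the file headers; of these only the ratios of Ahnak are printed.

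Counts of 12 libraries were fitted with edgeR 4.0.16 in R 4.3.3 (filterByExpr, TMM factors, 1 mean per group, 8 residual degrees of freedom, quasi-likelihood test, two-sided). Adjustment was by Benjamini-Hochberg across all 11857 tested genes, with calls made under 0.05. CPM are per scaled library. Intervals are at 95% from the fit. Profiles were compared on log2 CPM with a prior count of 2. Simulated counts were used to test the fit. DESeq2 1.42.0, 2 other scalings, no filter, fits of only the libraries compared, a robust fit, a replicate block, omission of Rn45s and omission of each library were tried as alternatives; the gene lists without ODN replicate 3 were added after seeing the data. Squared differences between replicates of a group were 5.115 to 73.67 times those of counting error, over all rows averaging 20 counts or more. Rn45s was among these rows, and abundant rows weigh most. The highest values, 64.34 and 73.67, came from the pairs with ODN replicate 2, the library low in Rn45s. The ratio therefore does not show whether spread or depth limits precision for genes with few counts.

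The 10 genes and the gene lists were chosen with earlier results of these data known, so no result here is independent support. All 10 genes are named throughout. From each list, up to 4 genes were eligible to be named. They had the largest change among those called in ODN against control or ODN+IM156 against IM156 and averaged 5 CPM or more. Klf2, S1pr1, Cd44, S100a8, S100a9 and Rn45s were among the genes eligible whatever their values. Prdm1 and Lyz2 were eligible in the same way, and their values are not given above. Icam2 falls outside the rule. A result on 1 list in ODN against control is not reported here. Cell type lists were summed over the genes in the table.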

Additional observations from a re-analysis of the deposited data

Results flagged for a closer look

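S100a10 lay above the control mean in all 3 ODN libraries and below the IM156 mean in all 3 ODN+IM156 libraries. Its log2 fold changes for ODN were 0.257 without IM156 (0.0995 when ODN replicate 1 was left out) and -0.247 with it, neither past the threshold. The test of the difference between them gave an interaction of -0.503 (log2, SE 0.167, edgeR adjusted p = 0.232), which did not pass. Vim, Lgals1 and Crip1 had fold changes of the same signs as S100a10 in these comparisons. S100a11 lay above the control mean in all 3 IM156 libraries and below the ODN mean in all 3 ODN+IM156 libraries, with an interaction of -0.221 (log2, SE 0.129, edgeR adjusted p = 0.521), which did not pass either.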

How the results depend on the processing

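The lower level of Ahnak in ODN+IM156 against IM156 kept its call under all 14 alternatives (-1.55 to -1.35 on the log2 scale, adjusted p 6.24e-26 to 0.000167). How many of the 10 genes passed moved in other comparisons. In ODN+IM156 against IM156 it was 6 when only the libraries compared were fitted, 1 with a robust fit and 1 to 2 with 1 library left out. In ODN+IM156 against ODN it was 2 with DESeq2, 5 without the filter on low counts and 0 to 5 with 1 library left out. In ODN+IM156 against control it was 2 without the filter and 2 when only the libraries compared were fitted. For the interaction it was 2 without the filter and 0 to 2 with 1 library left out, and in ODN against control 2 to 4, where the median ran from 0.0248 to 0.284. The cause was not tested. No called value changed sign. Among uncalled values in the tested comparisons, signs changed 19 times: Vim in IM156 against control was 0.00466 with library totals alone, and the rest came from leaving out 1 library. Those ranges in IM156 against control were -0.0515 to 0.151 for S100a10, -0.213 to 0.278 for S100a4, -0.123 to 0.0182 for S100a6, -0.107 to 0.0708 for Vim, -0.0142 to 0.165 for Lgals1 and -0.182 to 0.0495 for Crip1. They were -0.0768 to 0.155 for Ahnak in ODN+IM156 against ODN, and for the interaction -0.208 to 0.0429 for Ahnak and -0.0105 to 0.63 for Anxa2. Against control, leaving out 1 library also changed the sign of Vim (-0.0781 to 0.234), Emp3 (-0.28 to 0.0666), S100a11 (-0.128 to 0.0344) and S100a6 (-0.0737 to 0.0441) in ODN, and of Anxa2 (-0.225 to 0.288) in ODN+IM156. Replicate numbers did not pair the libraries (18 correlations of -0.1 to 0.0789), and with a replicate block 2 of the 10 genes passed in ODN+IM156 against IM156, 0 in ODN+IM156 against ODN and 2 in ODN against control, as without it. With 3 libraries a group and wide spread within ODN, small changes were not detectable.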
